A study of Mus musculus with 6 samples.

Results

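The numbered Zfp genes are mouse genes whose symbol is Zfp followed by a digit, most of which encode DNA-binding proteins with tandem C2H2 zinc fingers. They were followed in stimulated regulatory T cells (Tregs) from mice labelled wild-type for Bach2 and from mice labelled as its conditional knockout. Bach2 is the gene of a transcriptional repressor. Of the 49585 genes in the deposited table, 412 carry such a symbol. Members were chosen by a mean of at least 5 FPKM over the 3 libraries labelled wild-type (WT). FPKM is a count of fragments set relative to gene length and to the total of the library. The rule left out 4 genes by name: Zfp36, Zfp36l1 and Zfp36l2, which encode RNA-binding proteins of another class, and Zfp292. A further 207 lay below the floor, 20 of them listed at 0 in all libraries, which left 201 members. The WT values thus chose the members, so the levels are given as a description, and the comparison of the groups shares the WT values with it. Just outside the floor were Zfp608 at 4.87 ± 0.316, Zfp335os at 4.97 ± 0.776 and Zfp605 at 4.98 ± 0.372 FPKM in WT (SD, n = 3). Just inside were Zfp580 at 5.02 ± 0.917, Zfp54 at 5.13 ± 0.570 and Zfp799 at 5.31 ± 0.838 FPKM. Of the 201 members, 11 had a mean under 5 FPKM in the other group, so that they are members through the WT libraries alone.

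Poly(A) RNA came from splenic CD4+ B220- YFP+ cells of C57BL/6 mice, with CD25 as a further sorting marker in the design text, and the mice were 7 weeks old. After the sort, all cells were stimulated in vitro for 24 hours with plate-bound antibodies to CD3 and CD28. One group of 3 libraries is labelled WT and the other group of 3 is labelled Bach2-cKO, a conditional knockout. The cells in which Bach2 is deleted, the source of the YFP that both groups carry, and whether the numbered replicates are separate mice are not stated in the labels. The p-values therefore measure only the spread between these libraries, which may be technical.

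C2H2 zinc finger proteins read DNA with short finger units, each of which folds around a zinc ion held by a pair of cysteines and a pair of histidines. Many of them carry a KRAB box near the amino end, which recruits the corepressor TRIM28 (KAP1) and through it the histone methyltransferase SETDB1, HP1 proteins and the NuRD remodelling complex. KRAB zinc finger proteins are best known for silencing transposable elements and for keeping imprints, and their genes lie in tandem clusters that arose by duplication. Members without a KRAB box include activators, repressors and proteins of the cell division machinery.

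Coding stretches show what the members share and where they differ. They were taken from GENCODE M21 on GRCm38, and each lies within a single exon. In the first finger of 4 called members, the capitals mark the cysteine and histidine codons that hold the zinc. The stretches are chr1:136626063-136626125 on the plus strand for Zfp281, chr14:52009420-52009482 on the minus strand for Zfp219, chr7:30104749-30104811 on the plus strand for Zfp260 and chr2:170120166-170120231 on the minus strand for Zfp217.
Zfp281: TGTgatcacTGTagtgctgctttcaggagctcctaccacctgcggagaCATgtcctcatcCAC
Zfp219: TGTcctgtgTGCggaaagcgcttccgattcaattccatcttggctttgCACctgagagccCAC
Zfp260: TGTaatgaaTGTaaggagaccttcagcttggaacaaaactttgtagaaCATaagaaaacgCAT
Zfp217: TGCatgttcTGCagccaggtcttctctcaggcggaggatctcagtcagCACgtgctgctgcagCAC
The spacing of the capitals is the same in the first 3, at 63 bases in all, and Zfp217 has 1 more codon between its histidines, at 66 bases. The bases between them, which include the codons that contact DNA, differ from gene to gene.

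The 6 called members with a KRAB box are shown by the 51 bases that code for the later part of that box, with the codons of its conserved tryptophan and tyrosine in capitals. They lie at chr7:6389478-6389528 (plus strand, Zfp28), chr13:48498811-48498861 (minus, Zfp169), chr7:127421840-127421890 (minus, Zfp688), chr15:75973127-75973177 (plus, Zfp707), chr13:67673593-67673643 (minus, Zfp738) and chr7:7135323-7135373 (minus, Zfp773).
Zfp28: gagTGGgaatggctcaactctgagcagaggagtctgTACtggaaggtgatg
Zfp169: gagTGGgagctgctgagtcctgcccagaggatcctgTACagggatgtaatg
Zfp688: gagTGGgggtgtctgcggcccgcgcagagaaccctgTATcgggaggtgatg
Zfp707: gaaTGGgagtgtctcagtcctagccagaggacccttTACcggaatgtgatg
Zfp738: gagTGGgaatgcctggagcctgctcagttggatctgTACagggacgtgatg
Zfp773: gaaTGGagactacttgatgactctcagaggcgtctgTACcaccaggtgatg
Of the 51 bases, Zfp707 and Zfp169 shared 39, the most of any pair, and Zfp707 and Zfp773 shared 28, the fewest. These genes lie on 3 chromosomes, and the 6 stretches code for the same kind of repressor domain.

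Coding sequences were found for 199 members, and the other two, Zfp862-ps, a pseudogene, and Zfp783, have none in this annotation. By the pattern C, 2 to 4 residues, C, 12 residues, H, 3 to 5 residues, H, the translated members had a median of 9 fingers and a range of 0 to 36. Zfp330, Zfp703 and Zfp935 had 0 by that pattern. A KRAB box was found in 93 members by either of a pair of patterns and in 77 by the first alone, so the split depends on the pattern used. A member without a match may still carry such a box. Members with a KRAB box had a median of 12 fingers, against 7 in those without. Their median WT level was 11.7 FPKM, against 18.3 FPKM. Of the 13 members at 50 FPKM or more in WT, 2 had a KRAB box. A SCAN domain, a dimerization module, was matched in 6 members.

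Levels of the members in WT ran from 5.02 to 129.2 FPKM with a median of 15.1. Reads recovered from the FPKM steps put the fewest for any member in any library at 67, and the median over members of their lowest count was 773. All 201 had a value in every library and passed the filter of the test. The recovered totals were between 27697734 and 43884430 reads a library, the highest in WT replicate 1. Bach2 itself was at 107.6 ± 7.11 FPKM in WT and at 104.7 ± 16.0 FPKM under the Bach2-cKO label (SD, n = 3 each; limma adjusted p = 0.812). A sum over all exons does not check a conditional deletion, so every direction below rests on the labels. The Treg factor gene Foxp3 was at 116.0 ± 10.1 and 123.2 ± 26.5 FPKM (adjusted p = 0.786).

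Most members were a little lower in the libraries labelled Bach2-cKO, and few of them passed the test. Of the 201, 14 were called lower and 1 was called higher (limma, adjusted over all genes by Benjamini-Hochberg, threshold 0.05), and 186 had no call. Among all 13766 genes tested, 8.31% were called lower and 7.02% higher, and among the 10103 genes with the same WT floor 9.43% and 7.46%. At 6.97% of the members, the share called lower is near that background, and the share called higher, 0.498%, lies under it. The fitted change was below 0 for 149 members (74.1%), against 53.1% of all genes tested and 54% of those with the floor. The 3 WT values all lay above the 3 others in 61 members (30.3%), against 20.1% of all genes tested and 21.7% of those with the floor, and all below in 9 (4.48%), against 16%. At an unadjusted p under 0.05, 47 members were lower and 4 higher, where 17% and 13.8% of all genes tested were. Of the 10103 genes with the floor, 1899 were lower and 1441 higher at that threshold. The median change of the members was -0.11 on the log2 scale, with quartiles of -0.20 and 0.00, against a median of -0.02 over the genes with the floor. It stayed below 0 in every alternative fit of all members, between -0.15 and -0.07, scaling by median ratios (-0.09) and limma-voom on recovered reads (-0.10) included. These are bulk samples, in which fewer cells of a type and less RNA per cell cannot be told apart.

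**Figure D1:**
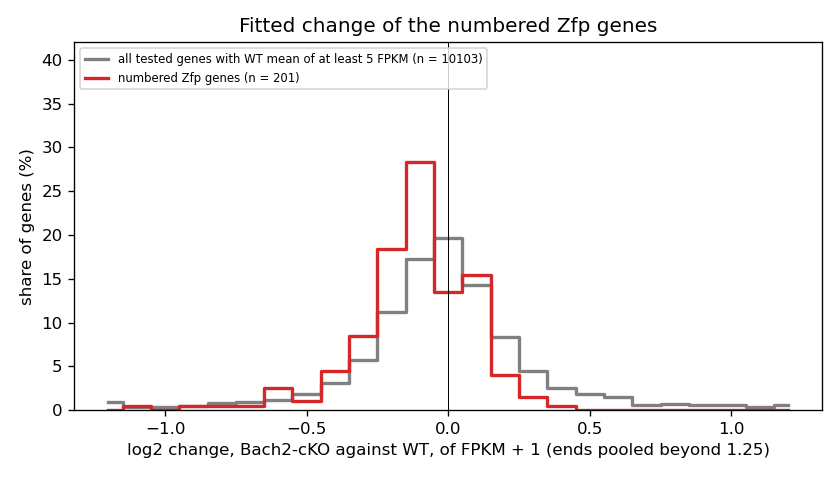
Share of genes (%, y axis) by fitted log2 change of FPKM + 1, libraries labelled Bach2-cKO against WT (x axis), for the 201 numbered Zfp genes and for all 10103 tested genes with a WT mean of at least 5 FPKM. The numbered Zfp genes have a median of -0.11 against -0.02 and hardly any values above 0.3, while the grey curve has tails on both sides.

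The same lean was seen at each WT level. Among the 61 members from 5 to under 10 FPKM the median change was -0.08, against -0.03 for all genes of that level, and 2 (3.28%) were called lower, against 8.38%. Among the 74 from 10 to under 20 FPKM it was -0.11 against -0.01, and 4 (5.41%) were called lower, against 7.45%. At 20 FPKM and above, 66 members had a median of -0.12 against -0.02. There 8 (12.1%) were called lower, against 10.5%, and 1 higher, so the calls at all 3 levels were near or under the background. Of the numbered Zfp genes below the floor, 95 could be tested, and their median was -0.11 with 69 below 0. None of these 95 was called by limma, 6 were lower and 1 higher at an unadjusted p under 0.05, and limma-voom called 1 lower and 1 higher. A floor on the mean of the libraries labelled Bach2-cKO in place of the WT mean gave 193 genes with a median of -0.10, of which 12 were lower and 1 higher.

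The lean was uneven between libraries. Relative to each gene's mean over the 6 libraries on the log2(FPKM + 1) scale, the median of the members was 0.07, 0.04 and 0.04 in WT replicates 1, 2 and 3. It was -0.11, -0.06 and 0.02 in Bach2-cKO replicates 1, 2 and 3. Bach2-cKO replicates 1 and 2 thus lay below all others, and Bach2-cKO replicate 3 lay close to the WT libraries. The summed level of the members was 4195, 4102 and 4050 FPKM in WT and 3672, 3774 and 3960 FPKM in the other group, so the groups did not overlap in this sum. Of the 201 members, 80.1% lay below their own mean in Bach2-cKO replicate 1, 69.2% in replicate 2 and 43.8% in replicate 3, against 27.4% to 36.3% in the WT libraries. Over all genes with the floor the library medians ran only from -0.01 to 0.02. Without Bach2-cKO replicate 3 the median change of the members was -0.15 and 25 were called lower, all 14 of the first fit among them. Without Bach2-cKO replicate 1 the median was -0.07 with 7 called lower.

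**Figure D2:**
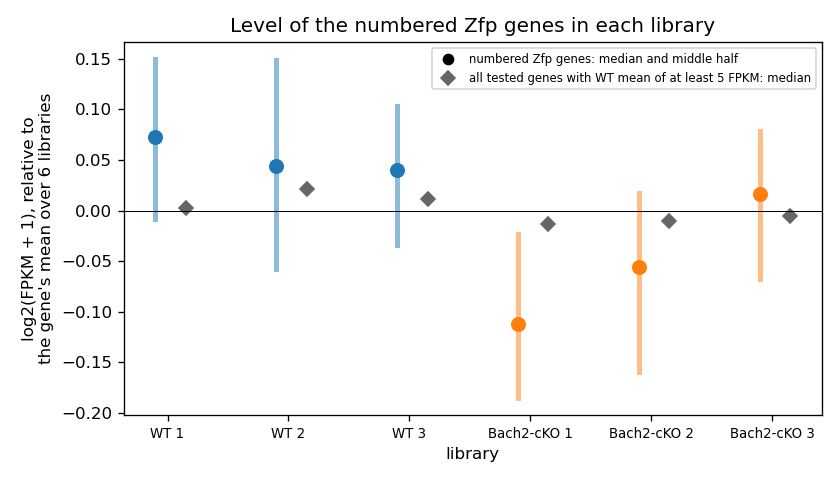
Median (circle) and interquartile range (bar) over the 201 numbered Zfp genes of log2(FPKM + 1) relative to each gene's mean over the 6 libraries (y axis), by library (x axis), with the median over all tested genes with a WT mean of at least 5 FPKM (diamond). The 3 WT circles lie between 0.04 and 0.07, Bach2-cKO replicates 1 and 2 at -0.11 and -0.06, and Bach2-cKO replicate 3 at 0.02.

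Markers of some other cells differed between the groups as well. Those of cell division were uneven between libraries, and their sums overlapped between the groups. In cells sorted as B220-, the 10 B cell markers, none of them at 0, summed to 1036 to 1456 FPKM in WT and 1515 to 1953 FPKM in the other group, and 4 rose. The pair of CD8 markers rose, from sums of 40.2 to 44.2 FPKM up to 99.3, 80.0 and 53.8 FPKM in Bach2-cKO replicates 1, 2 and 3. The 10 cell cycle genes summed to 496, 514 and 665 FPKM in WT replicates 1, 2 and 3 and to 826, 778 and 535 FPKM in the others, with no call. The other lists were those of T and Treg cells (6 genes, 1 rose), plasma cells (3, 2 rose), NK cells (3), myeloid cells (8) and erythroid cells (2). The plasma cell genes summed to 81.4 to 94.0 FPKM in WT and 157 to 225 FPKM in the Bach2-cKO libraries, without overlap. Of the NK genes 1 passed the filter and had no call, and the NK sums were 6.24 to 9.03 FPKM in WT and 10.9 to 17.1 FPKM in the others, without overlap. Of the 9 rows of the myeloid genes 5 passed it, with no call, and their sums were 23.3 to 33.5 FPKM in WT and 29.8, 70.8 and 78.7 FPKM in Bach2-cKO replicates 1, 2 and 3. The pair of erythroid genes had no call, and their sums overlapped, at 157 to 432 FPKM in WT and 176 to 869 FPKM in the others. With the B cell score of each library as a covariate, none of the members was called by limma, with 25 lower and 2 higher at an unadjusted p under 0.05, and the median change was -0.09. This score was at most 0.17 in WT and at least 0.19 in the others, so it also separates the groups. The log2 change of Zfp281 was -0.72 with the score and -0.90 without, and its SE 0.13 and 0.09. For Zfp579 the change was -0.65 and -0.55 and the SE 0.15 and 0.09. The part of these cells in the results was not tested beyond that covariate. Mitochondrial genes took 1.24% to 1.34% of the reads in every library.

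Among members in which neither KRAB pattern was matched, Zfp281 had the smallest adjusted p. It encodes a factor that binds GC-rich DNA and restrains Nanog in embryonic stem cells (chr1:136624901-136630053, plus strand, GRCm38). The level of Zfp281 was 55.6, 47.6 and 54.6 FPKM in WT and 26.7, 25.9 and 30.6 FPKM in the Bach2-cKO libraries. The lowest WT library was thus well above the highest of the other group, with means of 52.6 ± 4.37 and 27.8 ± 2.52 FPKM (SD, n = 3 each; log2 change -0.90, SE 0.09, limma adjusted p = 0.00116). Zfp219, a partner of SOX9 in cartilage (chr14:52006077-52020733, minus strand), was at 35.2, 32.7 and 31.7 FPKM in WT and 19.8, 19.0 and 21.8 in the others. It fell by 0.69 on the log2 scale (SE 0.08, adjusted p = 0.00176). The gene overlaps Arhgef40, and also Tmem253 on the opposite strand, and reads of such overlaps cannot be told apart if counting ignored strand.

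Zfp260, known from the heart as a regulator downstream of adrenergic signals, was one of the 6 members with the highest WT level (chr7:30094777-30107622, plus strand). Its values were 73.5, 72.4 and 68.5 FPKM in WT and 46.1, 45.5 and 54.5 FPKM in the Bach2-cKO libraries. Every WT value lay above the others, and the log2 change was -0.55 (SE 0.08, adjusted p = 0.00503). The gene overlaps Gm23368 on the opposite strand. Zfp579 (chr7:4983483-4996158, minus strand) was at 43.4, 46.0 and 36.3 FPKM in WT and 28.1, 27.3 and 29.0 in the others. It fell by 0.55 (SE 0.09, adjusted p = 0.00823), and the WT values spread more widely than the others, with SDs of 5.01 and 0.881 FPKM. Zfp865 (chr7:5020376-5036768, plus strand), with 20 fingers, was at 36.7, 36.5 and 34.7 FPKM and at 29.2, 28.7 and 30.8 FPKM. Its change was small, -0.27, but its values were tight within each group (SE 0.06, adjusted p = 0.0256). Zfp580 (chr7:5051538-5053723, plus strand), with 3 fingers, lay just above the floor. It was at 3.97, 5.68 and 5.41 FPKM in WT and 3.15, 2.34 and 3.26 FPKM in the others, a log2 change of -0.62 (SE 0.16, adjusted p = 0.0425), and it is a member only through its WT values.

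Zfp467 and the pseudogene Zfp862-ps are neighbours on chromosome 6. Zfp467, which steers marrow stromal cells between bone and fat (chr6:48427697-48445825, minus strand), was at 20.6, 16.4 and 18.5 FPKM in WT and 12.7, 11.4 and 10.5 FPKM in the Bach2-cKO libraries (log2 change -0.63, SE 0.11, adjusted p = 0.00841). Zfp862-ps (chr6:48504337-48534832, plus strand) had the lowest log2 change of all members, -1.13 (SE 0.16, adjusted p = 0.00391). Its values were 24.4, 20.5 and 28.7 FPKM against 10.2, 8.94 and 12.96 FPKM, with no overlap between the groups. It makes no protein in this annotation and shares positions with Gm10243 on the same strand and Gm7887 on the opposite one, so its reads may be split between genes.

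Zfp217, whose human counterpart is an oncogene product that works with the corepressor CtBP, was the 1 member called higher (chr2:170108643-170148103, minus strand). It was at 63.1, 63.0 and 63.1 FPKM in WT and 79.3, 81.4 and 71.1 FPKM in the others. The WT values were almost equal, and the means were 63.1 ± 0.0732 and 77.3 ± 5.44 FPKM (log2 change 0.29, SE 0.07, adjusted p = 0.026).

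Of the 93 members with a KRAB box, 6 were called lower and 0 higher by limma (16 and 2 at an unadjusted p under 0.05, and 6 and 0 by limma-voom). Their median change was -0.08, with 67 below 0. The 106 members with coding sequence but no KRAB box by either pattern had a median of -0.13, and 81 were below 0. Of these 106, 7 were called lower and 1 higher by limma (30 and 2 at an unadjusted p under 0.05). By limma-voom, 11 of them were lower and 2 higher. The shares called lower by limma, 6.45% with a KRAB box and 6.60% without, were under the 9.43% of all genes with the WT floor. At an unadjusted p under 0.05, 17% of all genes tested were lower and 13.8% higher. Of the 10103 genes with the floor, 1899 were lower and 1441 higher at that threshold, and 963 and 1010 by limma-voom. By the first KRAB pattern alone, 2 of 77 were called lower. With 1 library left out, 1 to 9 of the KRAB members and 5 to 15 of the others were called lower, the fewest without Bach2-cKO replicate 1 or 2 and the most without Bach2-cKO replicate 3. The difference between these classes was not tested.

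Zfp773 had the lowest change among the KRAB members (chr7:7127073-7136755, minus strand). It was at 5.72, 5.77 and 6.27 FPKM in WT and 2.38, 3.24 and 3.43 FPKM in the Bach2-cKO libraries (log2 change -0.79, SE 0.14, adjusted p = 0.00881). Like Zfp580, it passed the floor through WT, and these 2 were the called members among the 11 of that kind. Zfp28 (chr7:6383295-6396915, plus strand), with 14 fingers, was at 14.9, 13.2 and 15.9 FPKM in WT and 8.17, 9.86 and 11.2 FPKM in the others (log2 change -0.55, SE 0.12, adjusted p = 0.0249). Zfp169 (chr13:48487647-48513451, minus strand), with 17 fingers, was at 27.5, 22.6 and 21.4 FPKM against 16.4, 16.2 and 17.2 FPKM. The WT values of Zfp169 ranged widely, the others hardly at all, and the log2 change was -0.49 (SE 0.10, adjusted p = 0.0176).

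The other KRAB members that were called changed less. Zfp688, with 2 fingers (chr7:127418967-127422068, minus strand), was at 25.5, 27.3 and 21.6 FPKM in WT and 17.7, 18.1 and 19.4 FPKM in the others (log2 change -0.40, adjusted p = 0.0306). Zfp707 (chr15:75969123-75975868, plus strand) was at 14.1, 15.1 and 12.7 FPKM and at 10.7, 9.97 and 10.5 FPKM (log2 change -0.39, adjusted p = 0.0282). Zfp738 (chr13:67667437-67687071, minus strand) was at 14.3, 14.8 and 16.0 FPKM and at 11.9, 10.98 and 12.4 FPKM (log2 change -0.33, adjusted p = 0.041). In all 3 the groups came close and did not overlap. Zfp688, Zfp707 and Zfp738 are outside the rule for named genes and are given because they complete the list of called members.

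**Figure D3:**
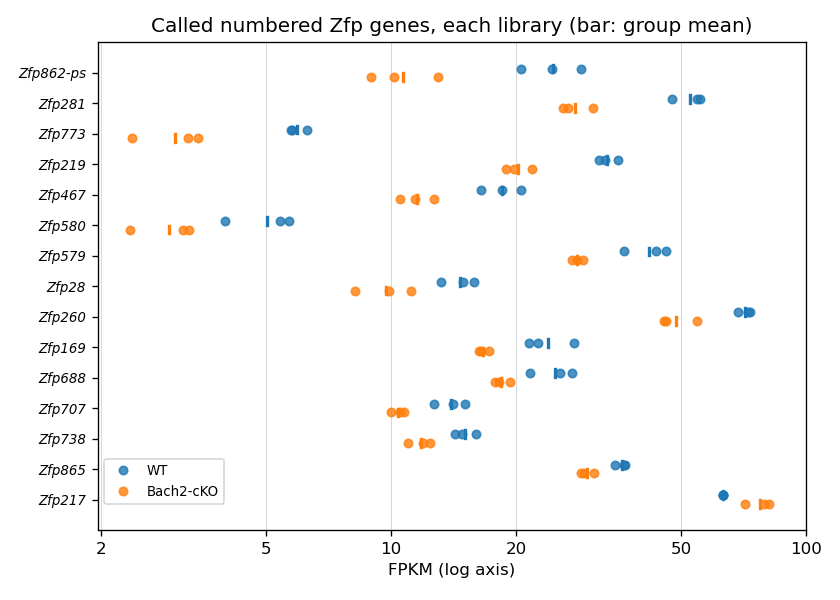
FPKM (x axis, log scale) of the 15 called numbered Zfp genes (y axis) in each of the 3 WT and 3 Bach2-cKO libraries (points), with the group mean as a bar. In each gene the groups do not overlap: the upper 14 are lower in the libraries labelled Bach2-cKO, by 1.13 on the log2 scale for Zfp862-ps down to 0.27 for Zfp865, and Zfp217 is higher.

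Some of these calls were lost when 1 library was left out. Zfp281, Zfp219, Zfp260, Zfp579, Zfp467, Zfp773 and Zfp862-ps were called in all 6 fits that leave out 1 library. Zfp169 was not called without Bach2-cKO replicate 1 or 2 (highest adjusted p = 0.0662). Zfp28 was not called without WT replicate 1 or 3 or Bach2-cKO replicate 1 or 2 (highest 0.0892). Zfp865, Zfp688 and Zfp707 were not called without WT replicate 1 or 2 or Bach2-cKO replicate 1 or 2, with highest values of 0.102, 0.109 and 0.102. Zfp580 was not called without WT replicate 2 or 3 or Bach2-cKO replicate 1 or 2 (0.134). Of these 6 fits, Zfp738 and Zfp217 were called only when Bach2-cKO replicate 3 was the library left out, with highest adjusted p of 0.143 and 0.101. By limma-voom, Zfp738 (adjusted p = 0.0559) and Zfp580 (0.0658) were not called and the other 13 were. All 15 kept their direction in every fit.

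Of the 6 most abundant members, none but Zfp260 passed the test. Zfp445, a KRAB member that keeps imprints together with Zfp57, had the highest WT level. It was at 135.4, 124.5 and 127.6 FPKM in WT and 118.5, 120.6 and 133.3 FPKM in the Bach2-cKO libraries, so the groups overlapped (log2 change -0.06, SE 0.07, adjusted p = 0.602). Zfp207, which encodes the spindle assembly protein BuGZ, was at 128.7, 120.5 and 125.4 FPKM and at 118.0, 119.1 and 122.8 FPKM. The groups overlapped here too (log2 change -0.06, SE 0.05, adjusted p = 0.517). Next in the order came Zfp740, at 93.0, 94.4 and 87.0 FPKM in WT and 71.1, 78.8 and 83.7 FPKM in the others. Zfp740 was lower without overlap and did not pass (log2 change -0.23, SE 0.07, adjusted p = 0.0761). Zfp106, an RNA-binding protein gene of muscle and motor neurons, was at 90.2, 85.0 and 87.7 FPKM and at 97.4, 100.2 and 89.9 FPKM (log2 change 0.13, adjusted p = 0.213). Zfp513, which has a role in the retina, was at 67.7, 71.9 and 64.4 FPKM and at 71.9, 74.3 and 70.5 FPKM (log2 change 0.09, adjusted p = 0.385), and it overlaps Snx17 on the opposite strand. In WT the means of Zfp445 and Zfp207, 129.2 ± 5.62 and 124.9 ± 4.09 FPKM, lay within their spread of each other, as did Zfp740 and Zfp106 at 91.5 ± 3.90 and 87.6 ± 2.59 FPKM, and Zfp260 and Zfp513 at 71.5 ± 2.60 and 68.0 ± 3.77 FPKM.

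By number of fingers, the 33 members with 0 to 4 had a median change of -0.15. Of these, 3 were called lower (9.09%) and 13 lay lower without overlap (39.4%). The 69 members with 5 to 9 fingers had -0.11, with 4 lower (5.80%), 1 higher (1.45%) and 15 lower without overlap (21.7%). Members with 10 to 14 fingers (55) and with 15 or more (42) had -0.09 and -0.10, with 3 lower in each (5.45% and 7.14%). Lower without overlap were 19 (34.5%) and 13 (31.0%) of them. Among all genes with the WT floor, 9.43% were called lower, 7.46% were called higher and 21.7% lay lower without overlap. Of the 6 members with a SCAN domain 5 were below 0, none was called by limma or limma-voom, and 1 was lower at an unadjusted p under 0.05.

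Numbered Zfp genes lie close together in the genome. Chaining all 412 rows over gaps of at most 300 kb gave 34 clusters of at least 3 genes, which held 225 of the rows, and 30 of the clusters held a member. The 108 members inside clusters had a median of -0.11, with 10 lower (9.26%) and 0 higher by limma. At an unadjusted p under 0.05, 26 of them were lower and 2 higher. The 93 outside had a median of -0.12, with 4 lower (4.30%) and 1 higher (1.08%) by limma. Of those 93, 21 were lower and 2 higher at an unadjusted p under 0.05. Among all genes with the WT floor, 9.43% were called lower and 7.46% higher, so the share inside clusters is near that background. At an unadjusted p under 0.05, 1899 of these 10103 genes were lower and 1441 higher. Values below 0 were found both inside and outside clusters, in 83 and 66 members. With 1 library left out, 5 to 15 members inside and 2 to 10 outside were called lower, again with the fewest without Bach2-cKO replicate 1 or 2 and the most without Bach2-cKO replicate 3. The 50 other genes that lie inside these clusters and reach the floor had a median of -0.09, with 6 lower (12%) and 3 higher (6%). All 7 clusters with 5 or more members had a median below 0, between -0.24 and -0.04.

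Of the 34 clusters, 2 held more than 1 called member. The first, at chr6:48427697-48623227, has 3 numbered Zfp genes, of which the 2 members Zfp467 and Zfp862-ps were both called lower, and of 4 other genes there with the floor 1 was called higher. The second lies near the start of chromosome 7, at chr7:4915217-5053723, with 6 numbered Zfp genes and 4 members. Zfp579, Zfp865 and Zfp580 fell there, and the fourth, Zfp628, was at 11.3 ± 1.02 and 10.3 ± 0.856 FPKM (log2 change -0.12, adjusted p = 0.482). Of the other genes of that span, 2 reach the floor, and 1 of them was called lower. Zfp580 and Zfp865 were among the members that lose the call when certain libraries are left out.

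Chromosome 7 held 46 members, more than any other, and 7 of the 14 that were called lower. Its members had a median of -0.14, with 38 below 0 (82.6%), 22 lower without overlap (47.8%) and 4 higher without overlap (8.70%). Of all genes of that chromosome with the floor, 58.3% were below 0, 202 (27.2%) lower without overlap and 97 higher without overlap. With 1 library left out, 3 to 8 of its members were called lower, 3 without Bach2-cKO replicate 1 or 2. These 744 genes had a median of -0.04, with 85 lower and 48 higher. Going along the chromosome, the cluster at chr7:6131491-6396915 held Zfp28, and the next, at chr7:6977246-7209998, held Zfp773. In the former, Zfp444 was at 29.2 ± 3.77 and 22.6 ± 2.27 FPKM (log2 change -0.35, adjusted p = 0.0733). In the latter, Zfp954, also a KRAB gene, was at 15.4 ± 2.08 and 13.8 ± 0.514 FPKM (log2 change -0.14, adjusted p = 0.411). In these clusters the neighbours of the called gene were below 0 and did not pass.

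Farther along lie the larger chromosome 7 clusters. In the one at chr7:27689340-28014115 all 5 members were below 0 (median -0.24), from Zfp974 at -0.38 to Zfp780b at -0.05, none of them past the threshold of limma. Zfp607a of this cluster was at 6.44, 6.40 and 6.20 FPKM in WT and 4.76, 4.82 and 5.18 FPKM in the others, and its adjusted p was 0.0678, though limma-voom called it lower. The cluster at chr7:29768552-30169750, with 8 members, went both ways. There Zfp260 fell, Zfp146 was at 49.6 ± 1.57 and 41.3 ± 3.24 FPKM (adjusted p = 0.0514), and Zfp568, which silences a placental form of Igf2, was at 8.45 ± 0.417 and 9.97 ± 0.813 FPKM (log2 change 0.21, adjusted p = 0.174). Zfp568 was higher without overlap, in the same cluster as Zfp260. In the cluster at chr7:127233061-127885996 all 6 members were below 0 (median -0.18) and 5 were lower without overlap, with Zfp688 called. The 13 other genes there with the floor had a median of -0.03.

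On chromosome 13, the cluster at chr13:67038594-67827002 had 24 numbered Zfp genes, the most of any cluster, and 10 members. Of these, 9 were below 0 and Zfp738 was called. Zfp874a and Zfp874b, neighbouring genes of similar name, were at 8.58 ± 0.432 and 6.73 ± 0.568 FPKM and at 8.33 ± 0.164 and 6.10 ± 0.970 FPKM. Neither passed by limma (adjusted p = 0.0758 and 0.0587), and limma-voom called both lower. Reads of such near copies may be shared between them, and the labels do not say how counting treated these.

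On chromosome 17, none of the 28 members was called by limma or limma-voom, with 0 lower and 2 higher at an unadjusted p under 0.05, and without Bach2-cKO replicate 3 limma called 1 lower. Of the 518 genes of that chromosome with the floor, limma called 50 lower (9.65%) and 36 higher (6.95%). At an unadjusted p under 0.05, 100 of the 518 were lower and 56 higher. Without overlap, 3 members were lower (10.7%) and 2 higher (7.14%), against 22.2% and 12.4% of the 518. The cluster at chr17:21383748-22456689, with 13 members, all with a KRAB box, had 8 below 0 and a median of -0.10. Zfp54 of this cluster had the highest log2 change of all members, 0.36, with 5.79, 4.86 and 4.75 FPKM in WT and 6.40, 6.62 and 7.56 FPKM in the others (adjusted p = 0.0782). Zfp53, another member of this cluster, was at 29.2, 28.4 and 29.1 FPKM and at 31.8, 35.01 and 32.5 FPKM (log2 change 0.19, adjusted p = 0.0886). In both the groups did not overlap, and neither passed the test. Zfp52, in the same array of genes, was at 32.6 ± 2.79 and 32.6 ± 1.24 FPKM. Of the chromosome 5 members, 9 of 11 were lower without overlap, against 135 of the 644 genes of that chromosome with the floor. None was called by limma or limma-voom (4 lower at an unadjusted p under 0.05), and without Bach2-cKO replicate 3 limma called 2 lower. Of those 644 genes, limma called 60 lower (9.32%) and 35 higher (5.43%), and 116 were lower and 81 higher at that unadjusted p. The 3 members on chromosome 19, among them Zfp91, all had a change above 0, of at most 0.11. Members without a call in these clusters were named after their values were seen.

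**Figure D4:**
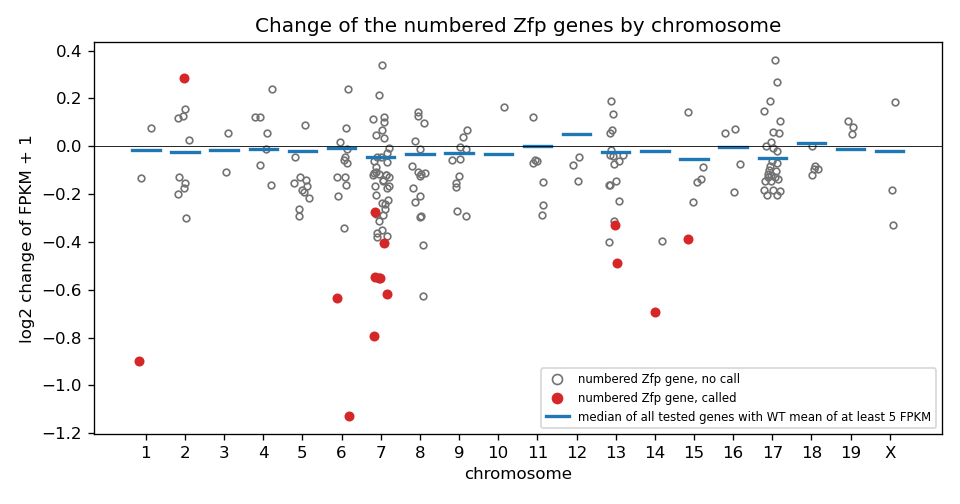
Fitted log2 change of FPKM + 1 (y axis) of each of the 201 numbered Zfp genes by chromosome (x axis, points spread sideways for clarity); filled points are called, and the bar is the median of all tested genes of that chromosome with a WT mean of at least 5 FPKM. Chromosome 7 holds 7 of the 14 genes called lower, chromosome 17 none, and 20 chromosomes hold a member.

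Other families named for zinc binding were counted at the same floor. Of all genes with that floor, 9.43% were called lower, 7.46% higher, and 54% were below 0. The 34 Zbtb genes, whose C2H2 fingers are joined to a BTB domain, had 1 lower (2.94%) and 2 higher (5.88%) and a median of -0.05. The 14 Zscan and Zkscan genes, which pair C2H2 fingers with a SCAN domain, had 13 below 0 (92.9%) and a median of -0.26. Of these 14, 5 were lower (35.7%) and 0 higher by limma or limma-voom. Of 8 Klf genes 2 were lower (25%), with a median of -0.28. The 14 Zc3h genes, which encode RNA-binding fingers, had 2 lower (14.3%) and a median of -0.10. The 18 Zdhhc genes, which encode palmitoyl transferases, had 1 lower, 1 higher (5.56% each) and a median of -0.01. The 3 Zmat genes had no call and a median of -0.03. With 1 library left out, 0 to 3 Zbtb, 2 to 7 Zscan and Zkscan, 1 to 2 Klf and 0 to 2 Zc3h genes were called lower. Differences between the families were not tested.

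The corepressors and chromatin factors that KRAB proteins act through were taken from a list of 28 symbols, of which 26 were found and tested. Of these, 1 was lower and 0 were higher by limma (6 and 2 at an unadjusted p under 0.05, and 1 and 0 by limma-voom), with a median of -0.02. Without Bach2-cKO replicate 3, 2 were lower and 3 higher. The 1 lower of the first fit is 3.85% of the list, against 8.31% of all genes tested. Without overlap between the groups, 8 of the 26 were lower (30.8%) and 2 higher (7.69%), against 20.1% and 15.5% of all genes tested. The 1 called lower was Chd3, an ATPase of the NuRD complex (chr11:69343273-69369406). It was at 369.0, 329.4 and 318.7 FPKM in WT and 216.2, 226.6 and 232.7 FPKM in the Bach2-cKO libraries, without overlap (log2 change -0.59, SE 0.07, adjusted p = 0.00242). Trim28, the corepressor that binds the KRAB box, was at 212.9, 235.9 and 203.8 FPKM and at 212.9, 192.5 and 194.5 FPKM. The groups of Trim28 overlapped (log2 change -0.12, adjusted p = 0.324), and the gene shares positions with Zbtb45 on the opposite strand. The methyltransferase gene Setdb1 was at 25.6, 26.3 and 27.1 FPKM and at 30.4, 30.6 and 28.2 FPKM, higher without overlap but without a call (log2 change 0.17, adjusted p = 0.125), and it overlaps Cers2. Chd4, a relative of Chd3 in NuRD, was at 236.2 ± 7.74 and 210.6 ± 7.44 FPKM (adjusted p = 0.0951), and Fam208a, a subunit of the HUSH silencing complex, at 18.1 ± 0.717 and 15.3 ± 1.21 FPKM (adjusted p = 0.100). Trim33, a relative of Trim28, was at 34.5 ± 0.873 and 30.5 ± 1.08 FPKM (adjusted p = 0.103). Chd4, Fam208a and Trim33 were each lower without overlap and had no call.

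Promoters of the members were searched for the letters of the element that BACH2 binds with small MAF proteins. RefSeq windows of 300 bases on GRCm38.p6, from 250 before to 50 after the start, were found for 170 members, with 207 windows. TGACTCA, the core shared with AP-1, stood on either strand in 3.38% of these windows (7 members), against 3.25% in windows of all genes with the WT floor and 5.20% in all promoters. A longer form of the element around the same core stood in 1 window, that of Zfp788 (0.483%), against 0.106% of the windows of genes with the floor and 0.155% of all promoters. Of the 11 members called lower that have a window, 0 held either. CpG pairs had a median of 17 a window in members, 21 in genes with the floor and 7 in all promoters. A match is a description of letters and not a binding site.

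A called member without the core and an uncalled member with it are shown by the 250 bases before their start, with the core in capitals. They are chr1:136624651-136624900 on the plus strand for Zfp281 and chr17:32788288-32788537 on the minus strand for Zfp871, where the core begins 85 bases before the start.
Zfp281: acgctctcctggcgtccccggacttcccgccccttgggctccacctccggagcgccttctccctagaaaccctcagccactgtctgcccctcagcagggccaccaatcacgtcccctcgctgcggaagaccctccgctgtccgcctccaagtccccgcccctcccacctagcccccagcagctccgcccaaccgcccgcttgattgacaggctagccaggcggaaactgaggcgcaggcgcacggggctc
Zfp871: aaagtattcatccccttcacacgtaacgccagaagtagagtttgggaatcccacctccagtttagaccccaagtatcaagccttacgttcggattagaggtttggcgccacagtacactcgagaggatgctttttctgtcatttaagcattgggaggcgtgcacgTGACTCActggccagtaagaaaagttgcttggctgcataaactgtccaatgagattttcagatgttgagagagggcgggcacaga
The Zfp281 window held 27 CpG pairs and the Zfp871 window 12. Zfp871 had a log2 change of -0.15 and no call.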

How the data were processed

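The authors deposited FPKM per gene and library, in a table of the whole series that equals the 6 files per library. The tools named in the submitters' processing notes are HISAT2 2.0.5 and featureCounts 1.5.0-p3, and the build is mm9. The gene positions in the deposited table equal GENCODE M21 on GRCm38 for 91.5% of 49326 identifiers, so positions are given as GRCm38. Strand use and filters are not stated there.

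The test used limma 3.58.1 (lmFit, eBayes with trend, no covariate, two-sided) in R 4.3.3 on log2 of FPKM plus a pseudocount of 1, for every gene that reached 1 FPKM in 3 or more libraries, with Benjamini-Hochberg adjustment over all genes and a threshold of 0.05. Log2 changes understate those of low genes. Whole reads recovered from the FPKM steps (all but 1 of 28530 genes within 0.001 reads, 11267 of them at the annotated length) gave depth and a limma-voom alternative. On simulated reads of 13765 genes, WT against Bach2-cKO, the test recovered 3 of 50 genes changed 1.25-fold, 30 changed 1.5-fold and 49 changed 2-fold. It also called 9 unchanged genes. Every simulated gene had the same relative spread (dispersion 0.00655), so recovery for genes with another spread is not shown.

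Members, lists, tests and the rule for named genes were chosen with earlier results of these data known. That rule took the 10 largest falls and up to 8 rises among calls without overlap, the 6 highest WT means, called members of clusters with 2 or more, and of the KRAB list the 4 smallest p, Trim28 and Setdb1. Domains were read from translated GENCODE M21 coding sequences in place of the RefSeq proteins planned, and a second KRAB pattern was added after the data were seen. Python 3.11.15 and Matplotlib 3.10.9 drew the figures.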

Additional observations from a re-analysis of the deposited data

How the results depend on the processing

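The median change of the members kept its sign in every setting, between -0.15 and -0.07, and no called gene changed sign. Among named genes without a call, Bach2 went from -0.05 to 0.06 without Bach2-cKO replicate 1, Foxp3 from 0.07 to -0.10 without Bach2-cKO replicate 3, and, with the B cell score, Zfp445 from -0.06 to 0.01 and Zfp513 from 0.09 to -0.02. The number of members called lower, 14, was 8 with no filter on low values, 9 with the replicate block and 0 with the B cell score, and 7 to 25 with 1 library left out. The 1 called higher became 2 by limma-voom, 0 with no filter, with the replicate block or with the B cell score, and 0 to 1 with 1 library left out, where the 1 without WT replicate 2 lies on chromosome 7 and is not Zfp217. Among all genes, 1144 lower became 681, 657 and 123 with no filter, the replicate block and the B cell score, and 560 to 1375 with 1 left out. The 967 higher became 501, 625 and 111, and 492 to 1224. Of the KRAB list, the 1 lower was 0 with the B cell score and 1 to 2 with 1 library left out, and the higher 0 to 3.

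Whether the replicate numbers pair the libraries is not stated. Deviations of same-numbered libraries from their group means correlated at -0.0526, 0.00578 and -0.215, and those of other pairs at -0.134 to 0.177. The deviations of 3 libraries from their own mean depend on each other, so these values cannot decide it. The design gives no other link between the libraries. The smallest change planted in simulated reads was recovered in few genes, and the members' median change is smaller than that. Whether depth or the spread of 3 libraries a group limits this was not tested. With a narrower or a wider gap than 300 kb the number of clusters was 31 or 33.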
